A study of Mus musculus with 18 samples.

Results

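Mouse embryos from which the liver had been removed were profiled at 4 stages, and the later stages were compared with the earlier ones. The stages were 10.5 and 11.5 days post conception (dpc), the earlier group, and 12.5 and 14.5 dpc, the later group. This tissue, the rest of the embryo, was measured on 4 of the 18 arrays of a study of mouse liver development, picked out by their source names. Each array held RNA from a pool of at least 5 CD-1 embryos, an outbred laboratory strain, which had been taken out of their yolk sacs before the liver was dissected away. No embryo carried a treatment or an altered allele according to the labels. Each stage had 1 array, so no stage has a replicate and no error of its own. The 8 liver arrays of the same 4 stages, 2 per stage, served to compare blood, mast cell, macrophage and hepatocyte genes. The other 6 arrays, of liver at 13.5 and 16.5 dpc and of adult females 10 weeks old, entered only alternatives that used all 18 arrays.

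The titles of these 4 samples name liver, while their source names and descriptions give the embryo minus liver. Albumin (Alb), the main plasma protein of hepatocytes, read 122 on the 10.5 dpc array and 956 and 1541 on the liver arrays of that stage. At 14.5 dpc it read 1220 outside the liver and 8941 and 8581 in it. Values are probe set intensities on a linear scale, and they are set against each other across stages for a given gene, not between genes.

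The period from 10.5 to 14.5 dpc covers the change from patterned primordia to working tissues. Myoblasts fuse into fibres, mesenchyme condenses into cartilage, the epidermis stratifies, and neurons leave the cell cycle and form circuits. Blood changes source as well, from primitive red cells made in the yolk sac to definitive red cells made in the fetal liver. In RNA from whole tissue, fewer cells of a type and less RNA per cell cannot be told apart.

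The array of 14.5 dpc stood apart from the others. Across probe sets its log2 values correlated with the 12.5 dpc array at Pearson r = 0.965 and with the 10.5 and 11.5 dpc arrays at r = 0.943 each, whereas the other 3 arrays correlated at 0.977 to 0.981 with each other. Its median intensity was 107, against 91.9 to 95.3 on the other arrays. The 3' to 5' intensity ratio of beta-actin, a reading of RNA integrity, was 1.11 at 14.5 dpc and 1.52 to 1.73 before, while that of Gapdh was 1.2 at 14.5 dpc and 1.09 on each of the other arrays. Pools also differed in sex. Eif2s3y, a Y-linked gene, read 56.5, 308, 295 and 9.7 in stage order. Xist, expressed from the inactive X chromosome of females, read 2697, 997, 1498 and 3872. At 14.5 dpc the Y-linked gene lay under the floor of 26.4 used below, and the makeup of a pool by sex cannot be told apart from its stage.

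The comparison of later with earlier stages, fitted with limma on 2 arrays against 2, called 0 of 12421 genes (0%), with calls made at 1 log2 or more and an adjusted p below 0.05. The smallest adjusted p was 0.519, and 1175 genes had an unadjusted p under 0.05. In that fit the change between 2 stages of a group counts as error. A straight line over days through the same 4 arrays, planned as an alternative, called 981 genes as rising (7.9%) and 175 as falling (1.41%) at an adjusted p under 0.05 and at least 0.25 log2 per day. A fit of all 18 arrays, in which the spread came from the liver pairs, called 586 genes higher and 56 lower in the later stages. Of the genes with a called line, 526 rising and 44 falling ones were also called there in the same direction. Both estimates come from the same 4 rest-of-embryo arrays, so the shared direction is no second measurement. In the text below, "rose" and "fell" are used only for genes called by the line, and slopes are in log2 per day with their standard error. Without regard to a test, both later arrays lay above both earlier ones by a mean of at least 1 log2 for 607 genes (4.89%) and below them for 55 genes (0.443%).

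Most of the change fell between the last 2 stages, which lay 2 days apart where the others lay 1. From 10.5 to 11.5 dpc, 174 genes were higher by at least 1 log2 (1.4%) and 155 lower (1.25%). From 11.5 to 12.5 dpc these counts were 184 (1.48%) and 40 (0.322%). From 12.5 to 14.5 dpc they were 717 (5.77%) and 150 (1.21%). Of these last differences 82.7% were increases, a share that dropped to 70.1% with each array centred on its median and to 72.3% with quantile normalization. The share of rising genes among the line calls was 84.9%, and 69.8% with median centring or 73.5% with quantile normalization. Centring moved the median difference of all genes between later and earlier stages from 0.07 to -0.05 log2. Without the 14.5 dpc array the line called 126 rising and 13 falling genes, and without the 10.5 dpc array 1707 and 347. With no filter on low values it called 0 in both directions, and with the filter at 1 array 1128 rising and 176 falling.

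**Figure D1:**
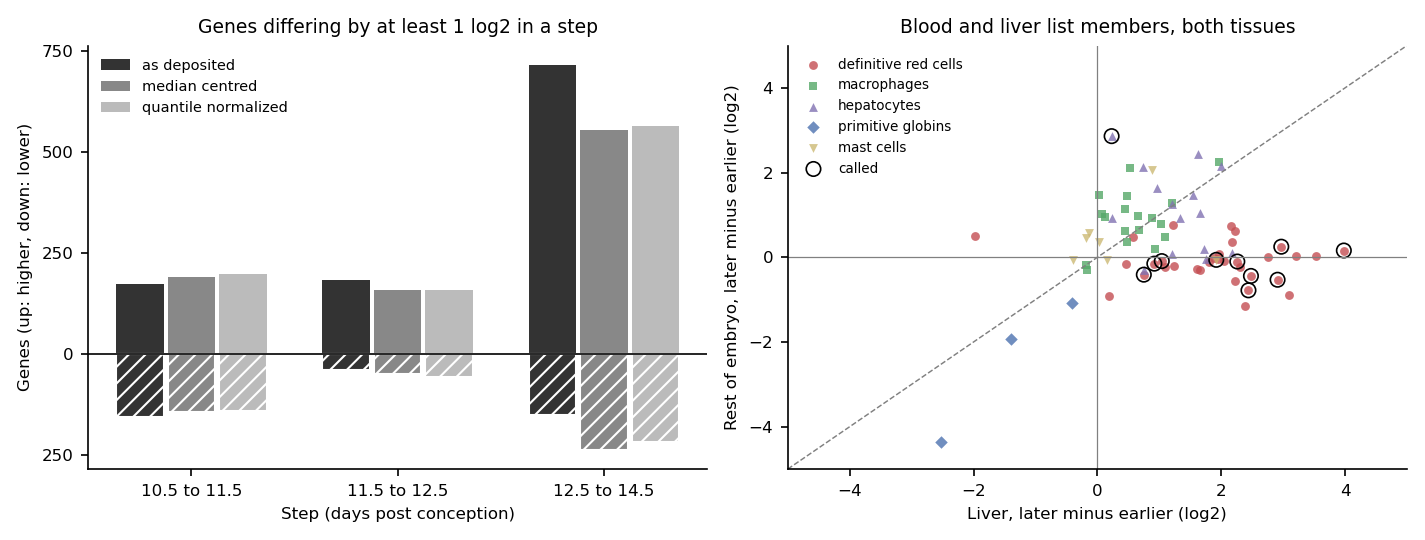
Left, number of genes that differed by at least 1 log2 between successive stages of the rest of the embryo (plain bars higher, hatched bars lower), with the values as deposited and after 2 other scalings. The step from 12.5 to 14.5 dpc holds 717 increases and 150 decreases as deposited. Right, later minus earlier difference (log2) of blood and liver list members in liver (x axis) and in the rest of the embryo (y axis). Circles mark the genes whose differences were called as unequal, and definitive red cell genes spread along the x axis while staying near 0 on the y axis.

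Skeletal muscle genes gave the steepest rises. Of the 10 genes with the largest later minus earlier increase, 3 belong to the sarcomere, the contractile unit of the fibre: Myh8, Tnnt3 and Myom2. Another, Sln, encodes sarcolipin, which regulates the calcium pump of the muscle reticulum. Of 33 sarcomere genes tested, 28 rose (84.8%) and none fell, with a median difference of 1.81 log2 against 0.07 over all genes. Another 8 named members were not tested because their probe set lay above the median signal on at most 1 array.

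Several regulators of the myogenic programme had gained much of their level by 12.5 dpc. Myod1, the factor that commits cells to muscle, read 102, 228, 397 and 474, and rose by 0.53 ± 0.11 per day (limma adjusted p = 0.0301). Myog, which starts terminal differentiation, read 114, 199, 416 and 642, a slope of 0.63 ± 0.09 (limma adjusted p = 0.00775). For both genes the level at 12.5 dpc was closer to the last array than to the first. Mymk, the membrane protein myomaker needed for myoblast fusion, read 29.4, 59.1, 222 and 667. Its fusion partner Mymx read 48.2, 166, 373 and 708. Their slopes were 1.15 ± 0.11 and 0.93 ± 0.13 (limma adjusted p = 0.00251 and 0.00834). Pax3, which marks the migrating muscle progenitors and the dorsal neural tube, fell from 709 and 364 to 433 and 148. Myf5, another early determination factor, read 183, 108, 161 and 311 and was not called, and neither was Pax7, a satellite cell factor, at 270, 180, 241 and 253. In all, 8 of 20 tested regulators rose (40%) and 1 fell (5%). Cdh15, a cadherin of myoblasts, read 46.9, 114, 153 and 383, and the acetylcholine receptor genes Chrna1 and Chrng of the nerve-muscle synapse rose to 564 and 246.

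Genes of the contractile apparatus included the highest folds of the muscle lists. Acta1, skeletal alpha-actin, read 611, 809, 1819 and 9599. Mylpf, the fast regulatory myosin light chain, read 838, 1457, 2927 and 9552. Myh3, embryonic myosin heavy chain, read 448, 858, 1684 and 5760. For each of these the level increased at every step, and the 14.5 dpc array lay 11.4 to 15.7 times above the 10.5 dpc array. Myh8, the perinatal myosin heavy chain, went from 39.4 and 106 to 284 and 4686, a 119-fold range with a slope of 1.73 ± 0.09 (limma adjusted p = 0.000338). Tnnt3, fast troponin T, went from 32.8 and 51.4 to 133 and 3653. Neb, the giant ruler of the thin filament, read 33.6, 92.5, 214 and 1371, and Myom2 of the M-band read 30.2, 30.8, 120 and 1296. Of the adult fast myosins, which were not tested, Myh1 read 10.5, 23, 58.8 and 350, and Myh4 stayed at or below 39.3 on all 4 arrays. Ckm, muscle creatine kinase, read 53.4, 66.3, 73.8 and 3790 and was left out by the filter on low values. It was singled out after its values were seen. The median step of the sarcomere list was 0.43, 0.70 and 2.04 log2 in order. Without the 14.5 dpc array 11 of its genes rose, and 4 of the regulators.

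Promoters of muscle genes that rose are shown because these genes moved together and because muscle factors are known to bind E-boxes and MEF2 sites. The sequences are the 250 bases before the RefSeq start site, 5′ to 3′ on the gene's strand, build GRCm38.p6. Capitals mark E-boxes (CANNTG) and MEF2 sites (CTA and TAG separated by 4 bases). Only this form of the MEF2 site was searched for, so a window without a match may hold another form. Positions are chr1:134289754-134290003 (plus strand) for Myog, chr7:127211358-127211607 (plus) for Mylpf, chr11:67276874-67277123 (plus) for Myh8, chr2:76982548-76982797 (minus) for Ttn, the giant elastic protein titin, and chr2:69669870-69670119 (plus) for Klhl41, a sarcomere-stabilising protein. Myog and Mylpf are shown as early regulator and abundant fibre gene, Myh8 as the largest rise, and Ttn and Klhl41 as genes with a MEF2 match.
Myog: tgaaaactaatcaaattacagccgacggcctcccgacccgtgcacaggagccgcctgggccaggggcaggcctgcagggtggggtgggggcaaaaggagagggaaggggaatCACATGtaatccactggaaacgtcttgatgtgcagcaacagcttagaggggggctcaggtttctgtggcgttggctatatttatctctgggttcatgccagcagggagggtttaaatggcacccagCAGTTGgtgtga
Mylpf: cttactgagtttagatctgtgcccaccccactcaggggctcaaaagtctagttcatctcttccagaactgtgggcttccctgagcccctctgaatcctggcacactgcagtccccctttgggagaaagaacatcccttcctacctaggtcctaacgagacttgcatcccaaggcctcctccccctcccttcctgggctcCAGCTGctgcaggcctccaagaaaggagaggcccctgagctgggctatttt
Myh8: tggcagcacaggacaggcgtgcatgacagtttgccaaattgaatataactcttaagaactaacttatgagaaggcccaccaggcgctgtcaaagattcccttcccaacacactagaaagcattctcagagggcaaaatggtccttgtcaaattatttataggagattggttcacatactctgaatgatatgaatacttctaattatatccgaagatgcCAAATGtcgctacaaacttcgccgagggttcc
Ttn: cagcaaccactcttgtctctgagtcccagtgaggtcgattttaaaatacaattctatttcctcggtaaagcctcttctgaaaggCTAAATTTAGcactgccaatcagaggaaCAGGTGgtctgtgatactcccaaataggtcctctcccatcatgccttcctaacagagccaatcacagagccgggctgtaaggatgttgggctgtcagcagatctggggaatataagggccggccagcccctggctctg
Klhl41: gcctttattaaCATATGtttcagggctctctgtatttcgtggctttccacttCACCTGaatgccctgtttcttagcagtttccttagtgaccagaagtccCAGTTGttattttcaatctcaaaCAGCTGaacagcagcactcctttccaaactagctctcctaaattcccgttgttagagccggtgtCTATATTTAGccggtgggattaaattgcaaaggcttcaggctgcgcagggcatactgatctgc

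The Klhl41 window held 4 E-boxes and the Myog window 2, while the other 3 held 1 each. Klhl41 read 129, 213, 500 and 1917 over the stages, and Ttn 273, 305, 515 and 2764, and both rose. Of 36 rising genes of the muscle lists, 29 had an entry in the RefSeq promoter table, with 33 windows. On either strand an E-box was found in 90.9% of these windows and in 66.2% of all 32851 windows of the table. A MEF2 site of the form searched for was found in 9.09% and 3.2%, and the TATA motif TATAAA in 27.3% and 12.4%. These matches describe the letters of the windows only.

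Heart muscle moved less. Of 19 heart genes tested, 5 rose (26.3%) and none fell, and all 5, Myh7, the troponin Tnnt2, the cardiac actin Actc1, Csrp3 and Smpx, are also made by skeletal fibres. With median centring 4 heart genes rose and 2 fell. The atrial markers did not pass the test: Myl7 read 2269, 1664, 1032 and 1072, and Nppa, the atrial natriuretic peptide, read 653, 805, 603 and 514. Myh6, the atrial myosin, read 1084, 659, 691 and 788. Csrp3 read 424, 435, 450 and 2790, so that its rise (slope 0.70 ± 0.14) lay in the last step, and Smpx had the same shape at 270, 248, 265 and 1872. Of 9 smooth muscle genes tested, 4 rose (44.4%). Acta2, smooth muscle actin, read 2409, 3105, 4156 and 6051, and Actg2, the enteric isoform, read 138, 209, 288 and 1285. Myh11, smooth muscle myosin, read 116, 168, 110 and 155 and was not called.

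**Figure D2:**
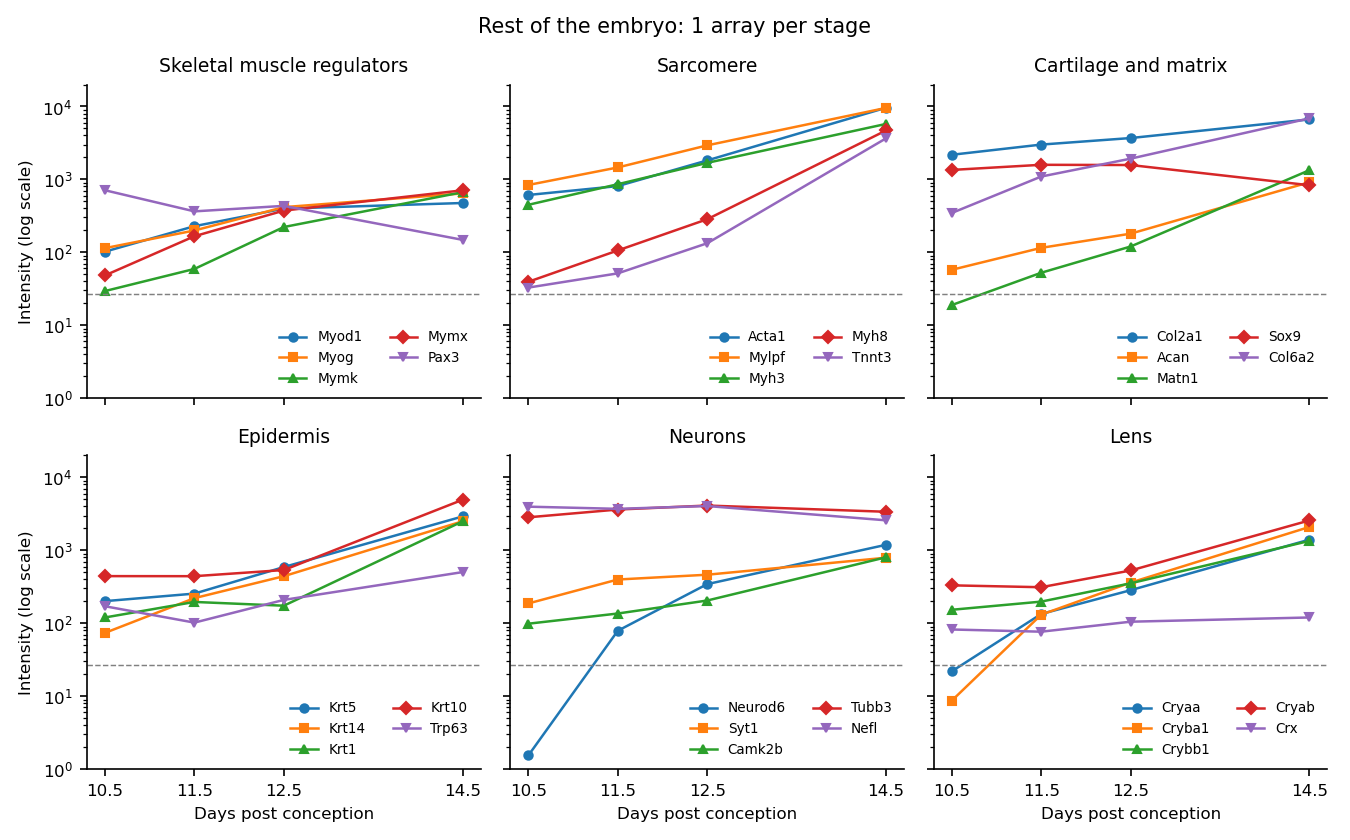
Intensity (log scale) against days post conception for genes of 6 tissues in the rest of the embryo, 1 array per point and no error bars. The dashed line is the floor of 26.4 under which values were not ordered. Sarcomere, cartilage, keratin and crystallin genes climb to the 14.5 dpc array, where Myh8 reads 4686, while Pax3, Sox9, Tubb3 and Nefl do not.

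Cartilage genes rose as well, 14 of 25 tested (56%) with none falling. Col2a1, the main cartilage collagen, read 2174, 2999, 3687 and 6642, a steady slope of 0.40 ± 0.03 (limma adjusted p = 0.00136). Acan, the aggrecan core protein that gives cartilage its stiffness, read 57.5, 115, 180 and 914. Matn1, a cartilage matrix adaptor, read 18.9, 52.4, 120 and 1336, at least 50.6-fold above the floor at 14.5 dpc. The type IX collagen genes Col9a2 and Col9a3, whose product coats type II fibrils, read 22.3, 70.3, 192 and 551, and 131, 311, 1016 and 2867. Cnmd, chondromodulin, an inhibitor of vessel growth in cartilage, read 296, 618, 1564 and 3762. These matrix genes were higher on both later arrays than on both earlier ones. The transcription factors above them did not rise: Sox9 read 1347, 1584, 1573 and 831, Sox5 153, 178, 208 and 196, and Sox6 474, 655, 585 and 609, none called. Col10a1, the collagen of hypertrophic cartilage, read 45.8, 59.6, 34.8 and 131 and was not tested. Ihh, a signal of prehypertrophic cells, stayed between 34.2 and 58.3.

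Bone and tendon genes did not all move the same way. Of 21 tested, 9 rose (42.9%) and 2 fell (9.52%). Tnmd, tenomodulin of mature tendon, read 76.2, 96.6, 271 and 1686, and Thbs4, a tendon matrix protein, 81.4, 97.1, 199 and 843. Ogn and Dcn, small proteoglycans of connective tissue, rose from 118 and 514 at 10.5 dpc to 3978 and 5420 at 14.5 dpc. Scx, the early tendon factor, read 171, 338, 337 and 222, and Sp7, an osteoblast factor, 436, 731, 506 and 501, neither called. Alpl, bone alkaline phosphatase, read 149, 221, 145 and 365. A pair of genes of mineralising bone read high on the last array alone. Ibsp, bone sialoprotein, read 64.4, 68, 82.5 and 761, and Dmp1, made by osteocytes, read 10.1, 14.4, 26.6 and 463. Both were outside the test and are named after their values were seen. The 2 genes that fell, Msx1 and Msx2, are homeobox factors of undifferentiated limb and face mesenchyme.

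Interstitial matrix showed the broadest rise after the sarcomere, with 19 of 25 genes called (76%), none falling and all 25 differences above 0. All 3 collagen VI chains tested rose: Col6a1 read 229, 509, 839 and 4691, Col6a2 346, 1093, 1923 and 6866, and Col6a3 311, 791, 1390 and 4553. Col12a1 and Col14a1, which decorate collagen fibrils, read 136, 423, 855 and 2920, and 150, 289, 551 and 2886. Aspn, asporin, went from 4.83 on the 10.5 dpc array to 1888 on the last, at least 71.5-fold above the floor. Eln, elastin, read 85.9, 192, 271 and 1784, and Lox, which cross-links collagen and elastin, read 192, 711, 1200 and 3593. Col3a1, at 6512, 7781, 9161 and 13277, rose by 0.26 ± 0.02 per day (limma adjusted p = 0.00234). Fbn2, Fbln1, Vcan and Serpinh1, matrix genes of early mesenchyme or of collagen folding, were not called. Dpt, dermatopontin of the dermis, read 36, 30.1, 63.2 and 2710 and was not tested. Without the 14.5 dpc array the line called 11 rising genes in the matrix list, 6 in cartilage, and 5 in bone and tendon.

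The epidermis changed chiefly between 12.5 and 14.5 dpc. Of 26 skin genes tested, 11 rose (42.3%) and none fell, and the median steps were -0.12, 0.41 and 1.62 log2. Without the 14.5 dpc array 1 of them rose. The basal keratins Krt5 and Krt14 were already higher at 12.5 dpc: Krt5 read 201, 255, 590 and 2916, and Krt14 73.8, 221, 442 and 2505, with slopes of 1.01 ± 0.08 and 1.25 ± 0.06 (limma adjusted p = 0.00144 and 0.000338). The suprabasal keratins Krt1 and Krt10 read 120, 196, 174 and 2499, and 443, 442, 537 and 4938. Both stood out on the last array. The desmosomal genes Pkp1 (49.3, 46, 98.6 and 1706) and Dsp (546, 412, 526 and 2918) also had their largest step last. Trp63, the master factor of stratified epithelium, read 171, 102, 209 and 503 and did not pass (limma adjusted p = 0.0645). The simple-epithelium keratins Krt8 and Krt18 were not called, at 604, 373, 286 and 987, and 1046, 679, 669 and 1376.

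Some genes of the outer, cornifying layers read high on the last array alone. Lor, loricrin of the cornified envelope, read 57.7, 35.1, 58.6 and 1466, and Krtdap 8.44, 18.5, 28.3 and 2666. Both were untested and are named after their values were seen. Flg, filaggrin, stayed between 7.64 and 25.8. Of 21 skin genes left untested, 14 lay above the filter value on a single array.

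Of 55 neuronal genes tested, 21 rose (38.2%) and 2 fell (3.64%). Of 31 progenitor genes, 9 fell (29%) and 1, the midbrain-hindbrain factor Gbx2, rose (3.23%). The neuronal list had its largest median step at the start, 0.46 log2, then 0.24 and 0.17. Without the 14.5 dpc array 10 neuronal genes rose and 0 progenitor genes fell.

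Neurod6, a factor of cortical projection neurons, went from 1.54 to 78.9, 344 and 1191, at least 45.1-fold over the floor. Tbr1, of deep-layer cortical neurons, read 52.2, 56.2, 168 and 258. Vsnl1, a neuronal calcium sensor, read 66.8, 75.2, 185 and 1095, and Camk2b, a synaptic kinase, 98.6, 136, 205 and 803. Syt1, the calcium sensor of synaptic vesicles, read 187, 398, 463 and 792 and rose by 0.48 ± 0.08 (limma adjusted p = 0.0128). Mapt, the axonal protein tau, read 632, 1774, 2344 and 3430. Genes switched on in newborn neurons were already high and were not called: Tubb3 read 2838, 3626, 4114 and 3380, Dcx 1429, 2335, 2312 and 2402, and the neurofilament Nefl 3971, 3707, 4053 and 2580. The 2 that fell, Nhlh1 and Nhlh2, are transient factors of newly born neurons. Nhlh2 read 1890, 1743, 1241 and 300.

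Among the progenitors, Sox2, the factor that keeps neural stem cells, read 3555, 3434, 3032 and 1404 (slope -0.35 ± 0.06, limma adjusted p = 0.0135). Hes5, a Notch target that holds back differentiation, read 2000, 1434, 1265 and 307. Neurog1, a proneural factor of sensory neurons and the brain, read 376, 182, 170 and 30. Sox3 read 661, 282, 300 and 84.3. Each of these 2 falls rests on 1 probe set, since the second probe set had a slope of -0.03 for Neurog1 and 0.07 for Sox3. Otx2, of forebrain and midbrain, read 573, 485, 372 and 150. Pax6 read 696, 457, 519 and 380, and Nes, the intermediate filament nestin, 1903, 1907, 1586 and 1221, neither past both thresholds. Fabp7 of radial glia read 5356, 6766, 6939 and 5924. With median centring 14 progenitor genes fell.

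Transmitter genes rose in 6 of 20 cases (30%). Gad1, which makes GABA, read 122, 251, 274 and 679. The neuropeptide genes Tac1 and Penk read 98, 196, 422 and 734, and 221, 920, 1004 and 2460. Th, of catecholamine neurons, read 237, 203, 198 and 204, and Slc17a6, the glutamate transporter of vesicles, 209, 499, 417 and 546, neither called. Of 18 ganglion and neural crest genes, 2 rose (11.1%): Prph, the peripheral neurofilament, read 98.8, 214, 361 and 727, and Erbb3, the neuregulin receptor of Schwann cells, 516, 569, 786 and 1109. Sox10, the crest and Schwann cell factor, stayed at 308, 345, 334 and 300. Among 11 glial genes, 3 rose (27.3%): the gliogenic factors Nfia (388, 1163, 1594 and 2226) and Nfib (506, 1362, 2215 and 3109), and Tnc, which is also in the matrix list. Slc1a3 (304, 419, 535 and 569), Gfap (157, 105, 119 and 84.9) and Pdgfra (2022, 2901, 3396 and 2508) were not called. Myelin genes Mag and Mog read at most 28.6.

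In the eye, 5 lens crystallins, the refractive proteins of lens fibres, rose. Of 12 lens and retina genes tested, 7 rose (58.3%), and the other 2 are the lens factors Pitx3 and Maf. Only Cryaa and Cryba1 of the 7 were called without the 14.5 dpc array. Cryaa read 21.9, 134, 284 and 1403, and Cryba1 8.68, 131, 361 and 2093, at least 53.1-fold and 79.3-fold above the floor on the last array. Their 10.5 dpc values lay at or under the floor. Crybb1 read 153, 198, 353 and 1347, and Cryab, which muscle also makes, 331, 312, 529 and 2573, both with their largest step last. Crx, of photoreceptors, read 82.1, 76.6, 105 and 120 and was not called. Of 6 pigment cell genes, Dct rose (from 87.5 and 117 on the earlier arrays to 290 on the last), which is 16.7% of them, and Mitf read 171, 100, 143 and 244.

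**Figure D3:**
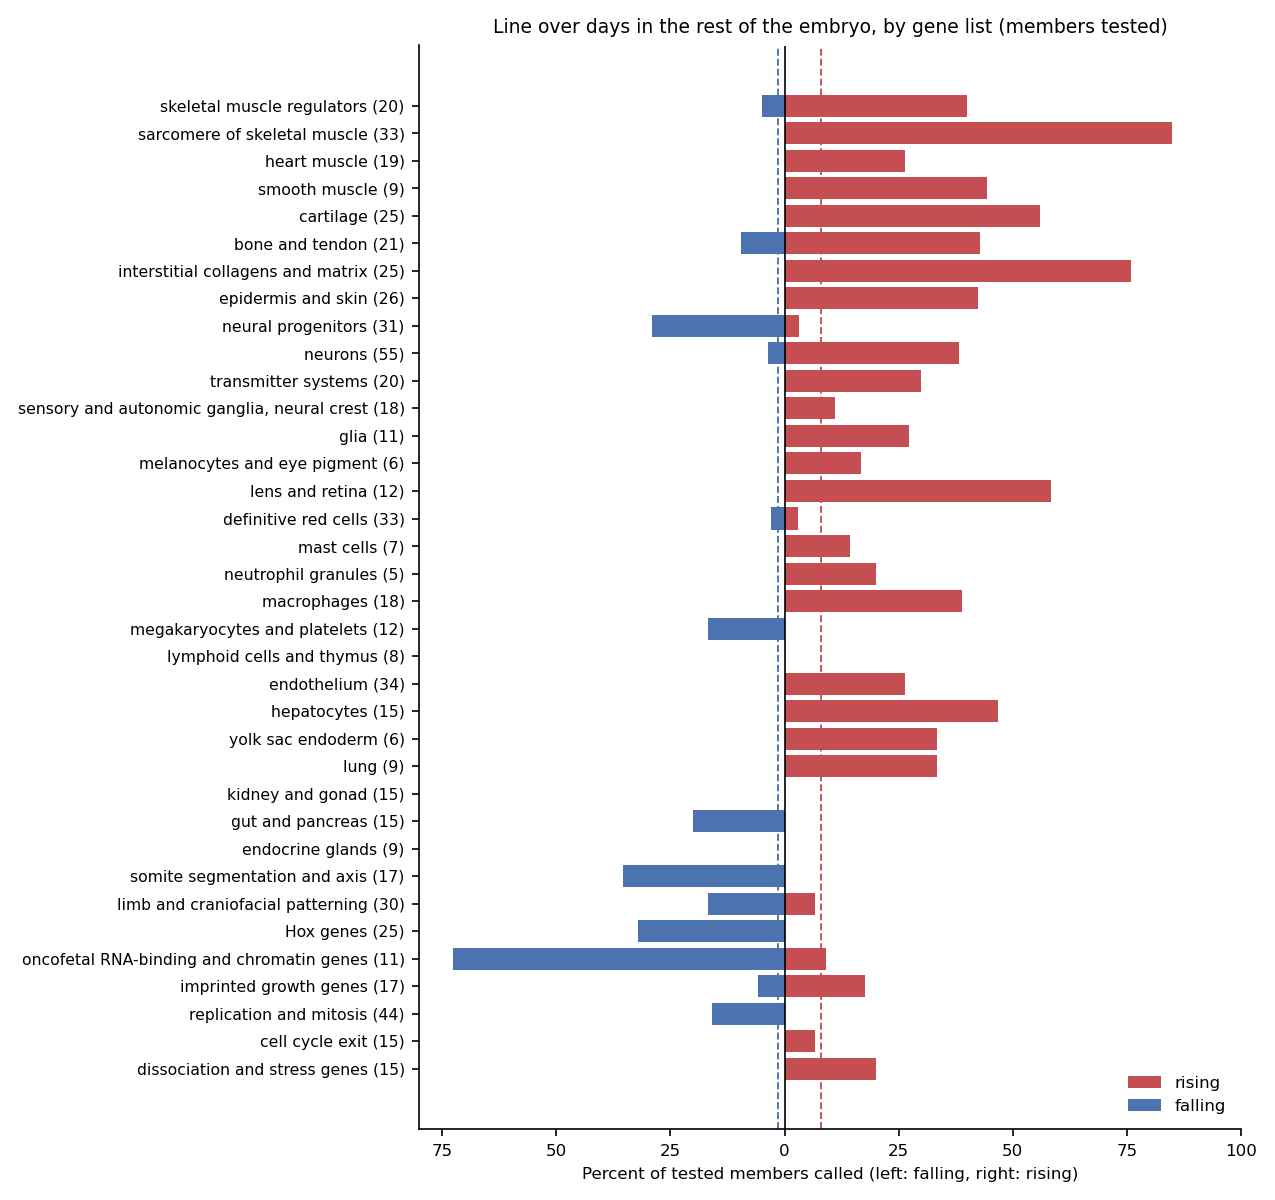
Percent of tested members of each gene list called as rising (right) or falling (left) by the line over days, with the number tested in brackets, for lists with at least 5 tested members. Dashed lines mark the shares over all 12421 genes, 7.9% rising and 1.41% falling. Sarcomere genes reach 84.8% rising and oncofetal genes 72.7% falling. The lists were chosen with earlier results of these data known.

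The embryonic globins included the largest fall of all genes. Of the 10 largest falls, 2 were globins, and all 3 genes of the list fell. Their median later minus earlier difference was -1.40 log2 in liver and -1.94 outside it, and for none was the difference between the tissues called. The readings that follow are from the rest of the embryo. Hbb-bh1, the beta-like globin of primitive red cells, read 11125, 9021, 4161 and 57.6, a slope of -1.97 ± 0.26 (limma adjusted p = 0.00664). Hba-x, the zeta-globin, read 11020, 10284, 9122 and 841 (slope -0.95 ± 0.17, limma adjusted p = 0.0163). Hbb-y, the epsilon-like globin, read 13711, 13527, 13846 and 3036 (slope -0.56 ± 0.12, limma adjusted p = 0.0291). It lay near the top of the arrays, whose highest values were 14220 to 15311, until 12.5 dpc. Without the 14.5 dpc array 1 of the 3 was called as falling, and the slope of Hbb-y was 0.01.

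Genes of definitive red cells did not move as a group outside the liver. Of 33 tested, 1 rose (3.03%) and 1 fell (3.03%), against 7.9% and 1.41% of all genes. Ank1, an anchor of the red cell membrane, rose, reading 304, 376, 350 and 787, though its other 2 probe sets had slopes of -0.08 and -0.07. Hba-a2, adult alpha-globin, fell, reading 198, 178, 144 and 67.8, and its near-identical copy Hba-a1 stayed at or under 18, so these values are uncertain. Alas2, the red cell enzyme that starts heme synthesis, read 935, 993, 754 and 1742. Slc4a1, the band 3 anion exchanger, read 1090, 776, 556 and 731. In liver Slc4a1 read 338 and 251 on the 10.5 dpc arrays, and by 14.5 dpc 3596 and 3910. The median later minus earlier difference of these 33 genes was -0.10 log2 outside the liver and 2.05 in it. The difference between the tissues was called for 9 of them, each less positive outside the liver, where the share over all genes was 0.982% less positive and 0.773% more positive. Hbb-b2, an adult beta-globin, went the other way, with 0.50 log2 outside the liver and -1.98 in it. Its difference of 2.48 ± 0.61 was not called (limma adjusted p = 0.0559). The liver arrays hold values below 0 and the others do not, so this test crosses values of different form, and without the 10.5 or the 14.5 dpc array 10 of the 11 calls in the blood and liver lists were lost.

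Among mast cell genes, 2 granule proteases read high on the last array, while 15 of the 22 named members were not tested. Cpa3, the carboxypeptidase of mast cell granules, read 21.9, 39.4, 79.1 and 1903, and Cma1, a chymase of connective tissue mast cells, 57.2, 81.6, 52.7 and 804. At 14.5 dpc Cpa3 lay 24.1-fold above 12.5 dpc and Cma1 15.3-fold. Both passed the signal filter on that array alone and were not tested. In liver Cpa3 read at most 125 on any of the 8 arrays and Cma1 at most 66.6. Mcpt4, a second chymase, went the other way, from 160 and 109 on the earliest liver arrays to 741 and 411 at 14.5 dpc. Its later minus earlier change outside the liver differed from that in liver by -1.98 log2 (limma adjusted p = 0.048). No other tested member of the list was called for a difference between the tissues. Srgn, the granule proteoglycan serglycin, read 54.2, 102, 126 and 769 and was the 1 of 7 tested members that rose (14.3%). The other tested members were not called by the line. Outside the liver Mcpt4 read 121, 81.5, 97.1 and 93.2, and Kit, the stem cell factor receptor, 347, 260, 331 and 508. Tpsab1, a tryptase, read at most 36.1, and Ms4a2 of the IgE receptor 52, 24.3, 36.5 and 86.2, and neither was tested.

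Macrophage genes rose in 7 of 18 cases (38.9%), and for all 7 both later arrays lay above both earlier ones, by a mean of at least 1 log2. The median later minus earlier difference of the 18 was 0.50 log2 in liver and 0.95 outside it. For none was the difference between the tissues called. Outside the liver the readings were as follows. Csf1r, the receptor for their growth factor, read 194, 272, 312 and 702, a slope of 0.45 ± 0.06 (limma adjusted p = 0.00769). C1qa, a complement subunit, read 45.5, 33.7, 103 and 333, F13a1, a clotting transglutaminase, 153, 136, 182 and 887, and Lyve1, shared with lymphatic endothelium, 53, 45.2, 116 and 384. Mrc1 read 137, 77.1, 125 and 328 and was not called. Kupffer cell genes Clec4f, Timd4 and Vsig4 stayed at or under 98.8. Without the 14.5 dpc array none of the 7 was called. Neutrophil granule genes were low: Mpo read 176, 144, 132 and 180 and Elane at most 31.4, and Mmp9 was the 1 of 5 that rose (20%). S100a8 read 31.9, 27.2, 42.4 and 321. Of 12 platelet genes none rose and 2 fell (16.7%), Ppbp (167, 217, 138 and 38.4) and Clec1b (209, 99.7, 94.7 and 52.8), while Pf4 held at 789, 779, 602 and 681.

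**Figure D4:**
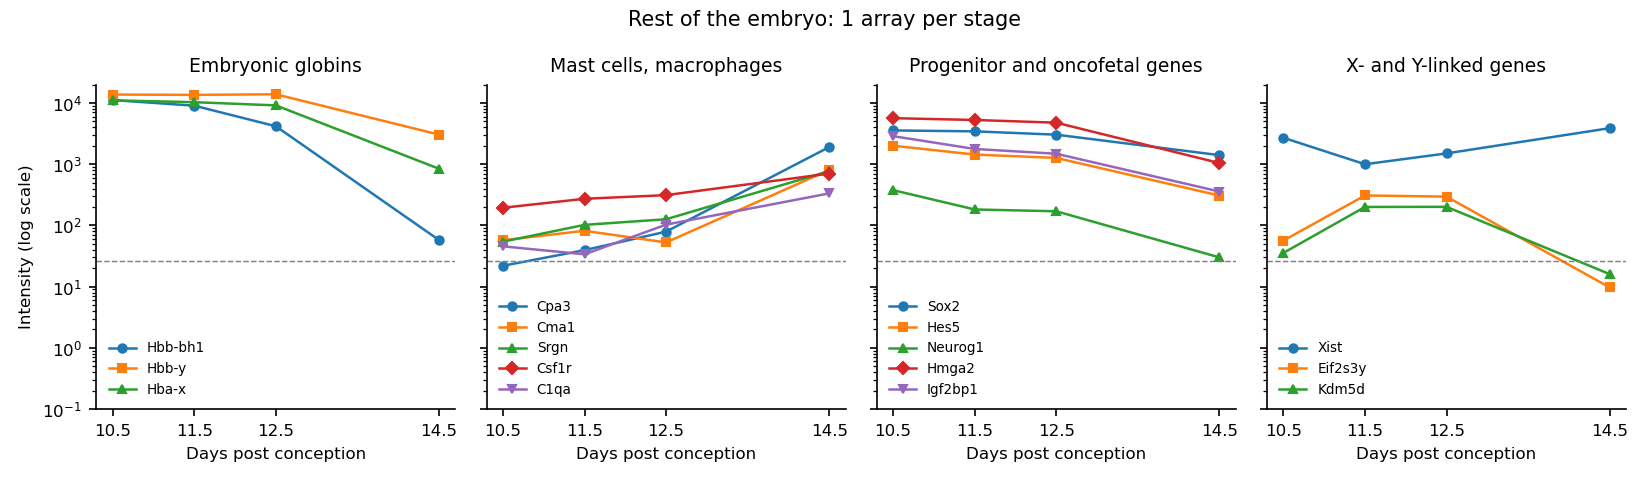
Intensity (log scale) against days post conception in the rest of the embryo for embryonic globins, mast cell and macrophage genes, progenitor and oncofetal genes, and X- and Y-linked genes, 1 array per point and no error bars. The dashed line is the floor of 26.4. Hbb-bh1 drops from 11125 to 57.6, Cpa3 climbs to 1903 on the last array, and the Y-linked genes are high on the 11.5 and 12.5 dpc arrays.

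Of 34 endothelial genes, 9 rose (26.5%), or 4 with median centring. Aqp1, a water channel of vessels and red cells, read 66.2, 108, 194 and 1096. The core endothelial genes Kdr (290, 292, 349 and 501), Pecam1 (122, 118, 136 and 310) and Cdh5 (814, 876, 985 and 1560) were not called.

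Some genes of patterning fell. In the somite list, 6 of 17 tested genes fell (35.3%) and none rose. Dll1, a Notch ligand of segmenting mesoderm and of the neural tube, read 891, 765, 641 and 279, and Uncx, of the caudal part of each somite, 179, 224, 151 and 29.7. Of 25 Hox genes, 8 fell (32%) and none rose. Hoxa2 and Hoxd3, of the hindbrain and neck, read 552, 394, 364 and 151, and 371, 388, 250 and 125. Of these 8, 7 belong to paralogue groups 2 to 5 and the other is Hoxb9 (364, 283, 291 and 151). Hoxd13, of the digits, read 498, 556, 1001 and 221 and peaked at 12.5 dpc without passing the test. Hoxa3 had another probe set with a slope of 0.05. In the limb and face list 5 of 30 fell (16.7%), or 10 with median centring, and 2 rose (6.67%). Msx1 read 1095, 878, 893 and 348, Sp8, of the limb ectoderm, 192, 92.4, 104 and 45.2, and Shh 756, 470, 370 and 368, the last not called. For these 3 lists no gene was called without the 14.5 dpc array.

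Oncofetal genes, active in early embryos and silenced before birth, fell in 8 of 11 cases (72.7%), against 1.41% of all genes. This was the highest falling share among lists with at least 5 tested members, but the lists were chosen with earlier results of these data known. Hif3a rose, though its second probe set had a slope of -0.02. Igf2bp1, an RNA-binding protein of growing tissues, read 2866, 1771, 1480 and 357, a slope of -0.74 ± 0.07 (limma adjusted p = 0.00251). Hmga2, a chromatin protein, read 5638, 5268, 4756 and 1042. Trim71, a target of let-7 microRNAs, read 484, 126, 75 and 37.5, and Arid3b 210, 98.9, 70.5 and 28.2. Trim71 lost most of its level by 11.5 dpc, whereas Hmga2 lost it after 12.5 dpc. Dusp9, a phosphatase, read 582, 186, 217 and 67.7. Lin28a, the let-7 inhibitor, read 152, 56.7, 49.1 and 22.1 and was not tested. Igdcc3, an immunoglobulin-domain receptor outside this list and among the 10 largest falls, had the same early drop at 3291, 560, 529 and 156.

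Most proliferation genes did not pass the test. All 44 replication and mitosis genes tested were lower in the later stages on average, with a median difference of -0.40 log2, and 7 passed both thresholds as falling (15.9%), or 19 with median centring. Rrm2, a subunit of ribonucleotide reductase, read 5588, 4528, 3881 and 2420 (slope -0.30 ± 0.03, limma adjusted p = 0.00277). Plk1, a mitotic kinase, read 1195, 1320, 904 and 581. Mki67, a marker of cycling cells, read 3833, 2980, 2998 and 2784 and was not called. Of 15 cell cycle exit genes, 1 rose (6.67%): Cdkn1a, the inhibitor p21, read 208, 268, 389 and 1358.

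Plasma protein genes of hepatocytes rose in the rest of the embryo too, 7 of 15 tested (46.7%). Alb read 122, 105, 303 and 1220, and Rbp4, the retinol carrier, 122, 65.6, 210 and 734. Ttr, transthyretin, which the choroid plexus also makes, read 1132, 3255, 4730 and 7550, and Dlk1, at 2629, 3550, 4277 and 7929, is a gene of many fetal tissues. Afp, alpha-fetoprotein, read 510, 141, 1427 and 2672 and was not called. Hnf4a, the defining hepatocyte factor, stayed between 48.4 and 63.7, and the fibrinogen genes Fga, Fgb and Fgg read at most 57.4. The summed level of the 31 named genes of the list was 6776, 9245, 13703 and 24698. Whether liver left in the dissections contributed was not tested. Of 6 yolk sac endoderm genes, Rbp4 and Ctsz rose (33.3%), and the defining gene Cubn read 45.6, 49.3, 54.5 and 122. Of 15 stress genes, Egr1, Hspb1 and Hspa1b rose (20%), and Fos read 62.5, 50, 77.1 and 332. Their part in the other rises was not tested.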

How the data were processed

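RNA from the pools, isolated with Trizol, was hybridised as biotin cRNA to Affymetrix mouse arrays, per the labels' protocols. The authors deposited linear intensities, 1 per probe set and array. For their summarisation and scaling, the sources used here give nothing. The rest-of-embryo arrays hold 35 to 41 exact zeros and no value below 0, unlike the liver arrays, so liver entered only the tissue by period test and 2 alternatives (all 18 arrays in 1 fit, and probe sets chosen over all 18).

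Of 45101 probe sets, 34945 had 1 gene symbol. Intensities were raised to a floor of 26.4 (20th percentile of the 4 arrays) and taken to log2. A gene stood on its probe set with the highest mean, and was tested when that exceeded 96.45 (50th percentile) on at least 2 arrays, which left 12421 of 18193 genes. Tests used limma 3.58.1 in R 4.3.3 (lmFit, eBayes with intensity trend, two-sided, Benjamini-Hochberg over all genes). The period test called at an adjusted p under 0.05 and 1 log2, and the line at 0.25 log2 per day. Genes at the floor share 1 value, so their error is too small and their change understated. The p-values of the line rest on how far the 4 stage values depart from a straight line. No stage has a second pool outside the liver, so they do not measure the spread between pools of a stage.

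The code was tested on simulated data, in which each gene was given the within-group spread of a random gene, unrelated to its change. In the real arrays the change between 2 stages of a group is part of that spread. The shares recovered therefore check the code and do not give the power of either test on these arrays. For later minus earlier, 61% of genes changed by 2 log2 were recovered. For the line, 66% of those changed by 1 log2 per day were recovered, but only 24% of those changed by 0.5 log2 per day. Unchanged genes called numbered 6 for later minus earlier and 3 for the line. Many of the named slopes are of the smaller size or less, so a gene not called may still have changed.

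The 38 gene lists hold 1018 genes, of which 654 were tested, 282 were not and 82 are not analysed here. The lists and genes were chosen with earlier results of these data known. Genes for naming were each list's 3 anchors and up to 4 called members with the largest difference (or 2 where none was called). They also included the 10 largest rises and falls, and the 5 largest steps each way, passing over predicted genes. Not all of these are printed. Anchors left out include Tbx4, Tbx5, Pou4f1, Cdkn1b, Cdkn1c, Mcm2 and Itga2b, which were not called. Tbx6, Hes7, Cd68 and Tyrp1, which were not tested, are left out too. Since the period test called no gene, calls of the line were used for this rule. Other list members are named to account for a role and were chosen after their values were seen. Alternatives were the floor, scaling, filter, probe set, variance trend, model and leaving out each array. Promoters came from RefSeq (GRCm38.p6).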

Additional observations from a re-analysis of the deposited data

Results flagged for a closer look

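The change from earlier to later stages differed between the rest of the embryo and liver for 11 members of the blood and liver lists, by the interaction of tissue and period in limma over 12 arrays. For 9 genes of definitive red cells the change was less positive outside the liver. E2f2, which supports terminal red cell divisions, differed by -3.82 ± 0.82 log2 (SE, limma adjusted p = 0.0415), and Slc4a1 by -3.44 ± 0.59 (limma adjusted p = 0.0193). Nfe2, a red cell and platelet factor, differed by -3.22, Sptb of the membrane skeleton by -2.91, Alas2 by -2.72 and Xpo7 by -2.36. Smaller differences were found for Car2 (-1.16), Bpgm (-1.13) and Prdx2 (-1.06). In liver E2f2 read -28.7 and 40.4 at 10.5 dpc and 1210 and 1125 at 14.5 dpc, while outside it read 222, 185, 185 and 277. Mcpt4, in the mast cell list, differed by -1.98, since it went from 160 and 109 to 741 and 411 in liver. Afp differed the other way, by 2.63 ± 0.55 (limma adjusted p = 0.0381), with liver values of 4525 to 6260 at these stages.

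These calls rest on few arrays outside the liver. Without the 10.5 dpc array, or without that of 14.5 dpc, 10 of the 11 no longer passed the threshold, without that of 11.5 dpc 8 and without that of 12.5 dpc 2, and none changed direction. Both tissues were measured with different forms of values.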

How the results depend on the processing

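No paired analysis was possible because each of the 4 arrays was of a different stage, with no unit shared between the earlier and later groups. The period test called 906 higher and 140 lower genes without the 12.5 dpc array, 3 and 2 without that of 14.5 dpc, and 0 without the 10.5 or the 11.5 dpc array, so leaving out an array gave 0 to 906 and 0 to 140. It gave 981 higher and 175 lower with a line over days and 586 and 56 with all 18 arrays, and 0 under the others. Genes separated upward numbered 222 to 1272 and downward 28 to 201 without 1 array, and those downward 83 with quantile normalization, 99 with no filter and 84 with the filter at 1 array. For the line over days, whose alternatives were chosen after seeing the data, leaving out 1 array gave 126 to 1707 rising and 13 to 347 falling genes. Falling genes numbered 338 with median centring, 275 with quantile normalization and 115 without the intensity trend. With no filter the line called 0 in either direction. The step from 12.5 to 14.5 dpc had 237 decreases with median centring. Tissue by period gave 421 calls with a floor at the 40th percentile, 1329 with a mean per tissue and stage, and 29 to 948 without 1 array. Of 130 named genes with a called slope, 89 lost the call without the 14.5 dpc array, and 4 others lost it with a change of sign. The call was lost for 29 with the mean of probe sets, 29 without the intensity trend and 24 without the 11.5 dpc array. Of the 130, 47 had another probe set above the filter, and 3 of these had one of the other sign. Some others had a weaker one, with slopes of 0.14 for Prph, 0.18 for Dcn, 0.22 for Gad1 and -0.14 for Msx2, and as low as 0.09 for Csf1r. Leaving out 1 array moved the slope from -0.01 to 1.03 for Smpx, -0.77 to 0.01 for Hbb-y, -0.00 to 1.32 for Sftpc and -0.03 to 0.81 for Hspa1b, where the value near 0 is that without 14.5 dpc. With probe sets chosen over all 18 arrays Sox3 had a slope of 0.07, and Neurog1, Gria4, Clec14a, Sall4 and Hoxc5 lost the call. The causes were not tested. The number of arrays and the signal over background limit every value, and 86 list genes above the filter value at 14.5 dpc alone were not tested.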

Other observations

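In the lung list 3 of 9 tested genes rose (33.3%) and none fell, against 7.9% and 1.41% of all genes. With median centring 2 of the lung genes rose. Sftpc, the surfactant protein of distal lung epithelium, read 99.5, 97.9, 98.9 and 1264, so its whole rise lay on the 14.5 dpc array, while Sftpb, another surfactant protein, read 142, 123, 115 and 206 and was not called. The lung and thyroid factor Nkx2-1 read 63.2, 80, 29.8 and 14.5 and was not tested. Of 15 kidney and gonad genes none was called by the line (limma): Wt1, of nephron and gonad progenitors, read 237, 226, 236 and 117, and Six2, of nephron progenitors, 318, 618, 406 and 296. In the gut and pancreas list 3 of 15 genes fell (20%), Nkx2-2 and Sox2, which also mark the neural tube, and Barx1, of stomach and jaw mesenchyme. Pdx1 and Ins2, of the pancreas, read at most 36.6 and 60.2. None of 9 endocrine genes was called, and Pomc of the pituitary read 122, 162, 153 and 155. None of 8 lymphoid genes was called either, and Rag1, needed for receptor rearrangement, read at most 70.

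Imprinted growth genes were high throughout and mostly steady. Of 17 tested, 3 rose (17.6%) and 1 fell (5.88%), against 7.9% and 1.41% of all genes. Igf2, the fetal growth factor, read 7359, 8674, 9140 and 10086 and missed the thresholds (slope 0.11 ± 0.03, limma adjusted p = 0.051). The neighbours Dlk1 and Meg3, expressed from opposite parental chromosomes, both rose, Meg3 from 2773 and 4069 to 3723 and 7259. Asb4 fell, at 1943, 1192, 1596 and 647.

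Some of the largest single steps were 1-array readings that no neighbouring stage shared. Ptchd1 read 42.4, 90.8, 2638 and 137. Mustn1 read 21, 399, 91.3 and 476, and Sycn 205, 23.1, 204 and 246. Ppp1r15a read 203, 170, 964 and 229. With 1 array per stage these readings have no second measurement. Outside the lists, Nfix, a factor of fetal muscle and neural maturation, read 44.5, 442, 829 and 2994, Tceal7 54.4, 58.1, 218 and 3011, and Car3, a carbonic anhydrase of muscle and fat, 389, 331, 432 and 7096, and all 3 rose. Ppp1r17, Robo3, an axon guidance receptor, and Hsd11b2, which inactivates glucocorticoids, fell, with 24.2, 21.4 and 121 on the last array after 400, 231 and 1031 at the start. Hemgn, a gene of blood progenitors, read 598, 104, 69.9 and 177 and was not called.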
